A study of Mus musculus with 18 samples.

Results

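The difference between aged and young wild-type (WT) mice in how the left ventricle responds to ischaemia and reperfusion (IR) was measured gene by gene, as the log2 fold change of IR over sham in aged WT minus that in young WT. It rests on 12 of the 18 RNA-seq libraries of the series, chosen by their labels: 3 aged WT IR, 3 aged WT sham, 3 young WT IR and 3 young WT sham. All 12 are left ventricles of C57BL/6J mice of WT genotype. Aged mice were 24 to 26 months old and came from Charles River, whereas young mice were 3 to 4 months old and came from The Jackson Laboratory, so age and supplier cannot be told apart. IR hearts had 45 min of occlusion of the left anterior descending artery followed by 24 h of reperfusion, and the control hearts are labelled Sham, with no detail of that operation. The other 6 libraries, from Sesn2-KO mice of 3 to 4 months after IR or sham, entered the fit through its shared estimate of the spread and take no part in the contrast. The question is how alike the responses of aged and young hearts are in size and in kind, and which differences the data can exclude.

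Reopening a coronary artery brings oxygen back to muscle that has been starved of it and leaves an injured zone in which cardiomyocytes die. Within a day neutrophils and then monocytes enter the zone, drawn by chemokines, while surviving muscle switches on stress genes and fibroblasts begin to lay down a wound matrix. The ageing heart is known for low-grade inflammation and for poorer tolerance of ischaemia.

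The 12 libraries held 9404531 to 14458047 gene counts, and 13859 of 24421 genes were tested. Cardiomyocyte markers were present in every heart (16 of 16 tested), with a summed level of 55060 to 62020 library-scaled counts (CPM) in aged IR, 67870 to 69840 in aged sham, 55200 to 61240 in young IR and 68090 to 70150 in young sham hearts. The haemoglobin genes Hba-a1, Hba-a2, Hbb-bs and Hbb-bt were at 0 in all 12. Coordinates are on GRCm38. Some libraries stood apart from their group. Young sham 3 had a mean log2 CPM of 7.98 over the interferon-inducible GTPases, against 4.29 and 4.72 in the other young sham hearts. In aged IR 3, aged sham 1, young IR 3 and young sham 1, deviations from the group mean rose with transcript length (rank correlation across genes 0.31 to 0.48). With Sesn2-KO sham 3 and Sesn2-KO IR 3 these are the 6 length-tilted libraries left out in 1 of the alternatives. Young sham 2 and aged sham 2 were tilted the other way (-0.43 and -0.35). A value after ± is a standard error. Calls required an adjusted p under 0.05 (edgeR quasi-likelihood test, Benjamini-Hochberg over all genes tested), and fold changes are edgeR's estimates on the log2 scale. The labels do not tie hearts to litters or days, so the spread that p-values measure is that between these samples only.

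No gene was called for the difference between the aged and the young response, 0% of the 13859 tested. The smallest adjusted p was 0.9998, and 152 genes (1.10%) had an unadjusted p below 0.05 in edgeR. Evenly spread p-values would put 5% there, so edgeR's p-values for the difference ran high. The count of 0 calls is therefore weak evidence of alike responses, and the cause of the high p-values was not tested. DESeq2 called 0 genes, with 151 at that unadjusted p, and limma voom with quality weights called 0, with 895. The difference was positive, meaning a higher fold change in aged hearts, in 6879 genes, or 49.6%, and its median over all genes was -0.0023. The median size of the difference, whichever its sign, was 0.15. A p that misses the threshold does not show that the responses were alike, so the responses themselves and the interval of each difference follow.

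IR moved many genes at both ages, and largely the same way. Averaged over both ages, 1780 genes rose after IR (12.8% of those tested) and 1118 fell (8.07%). Within aged hearts 743 genes rose (5.36%) and 311 fell (2.24%). Within young hearts 578 genes rose (4.17%) and 263 fell (1.9%). Of the genes that rose, 402 were called at both ages, which is 54.1% of the aged calls and 69.5% of the young calls. Of the genes that fell, 125 were shared, or 40.2% of the aged and 47.5% of the young calls. The aged and the young response share no library. Of the 527 genes called only in aged hearts, 524 had the same sign in young hearts. Of the 314 called only in young hearts, 307 had the same sign in aged hearts. Over all genes tested 78.5% had the same sign. The difference had an unadjusted p below 0.05 in 25 genes called only in aged (4.74%) and 30 called only in young hearts (9.55%). Both shares lie above the 1.10% of all genes. EdgeR called none of these genes for the difference, so a call at 1 age alone does not show a difference between ages. Being called at 1 age only itself favours a larger difference. The number of calls within an age rested on single hearts. Aged hearts gave 232 calls without aged sham 1, 260 without aged IR 1, 440 without aged sham 3 and 597 without aged IR 3, against 1054 with all. Young hearts gave 270 without young IR 3, 344 without young sham 1 or young sham 3, 429 without young IR 2 and 1465 without young IR 1, against 841 with all.

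The levels of single hearts separated in the same way. In 1066 genes every IR heart lay above every sham heart at both ages, and in 758 genes every IR heart lay below, together 13.2% of the genes tested. In 6 genes the groups separated in opposite directions at the 2 ages. For comparison, IR and sham did not overlap in 3999 genes (28.9%) in aged and in 3220 (23.2%) in young hearts, in either direction.

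**Figure D1:**
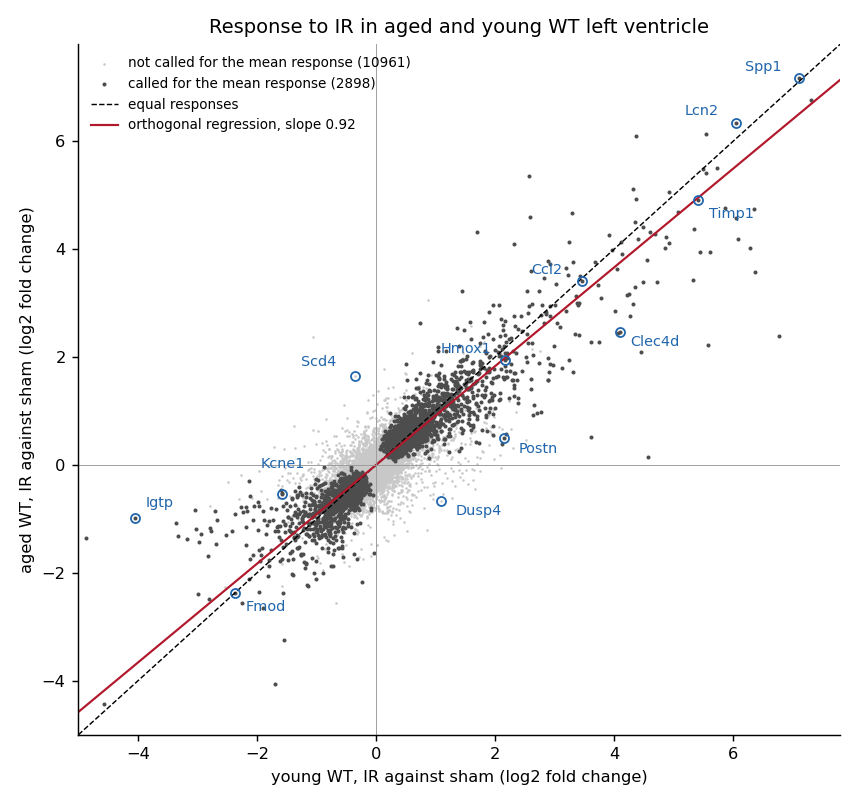
Log2 fold change of IR over sham in aged WT (vertical) against young WT hearts (horizontal) for 13859 genes, 1 point a gene, with the 2898 genes called for the mean response marked, the line of equal responses, and an orthogonal regression line of slope 0.92; 8 genes lie outside the axes. The called genes follow both lines, with the widest scatter among the strongest responses.

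The sizes of the responses differed by less than the spread between hearts. Over the 2898 genes called for the mean response, an orthogonal regression of aged on young fold changes had a slope of 0.92, with a correlation across genes of 0.92. These are descriptions, because genes are not independent and choosing genes by the mean response favours equal signs. Leaving out 1 library at a time moved the slope between 0.80 (without young IR 1) and 1.08 (without aged sham 2), on both sides of equal responses. From group means of log2 CPM, a setting added after seeing the data, the slope was 1.00. Genes chosen by their call in aged hearts gave 1.03 and genes chosen by their call in young hearts gave 0.82. The 77 genes with a mean response above 3 had median fold changes of 3.94 in aged and 4.34 in young hearts. For the 452 genes between 1 and 2 the medians were 1.25 in aged and 1.36 in young hearts, and for the 831 genes between -1 and -0.5 they were -0.68 in aged and -0.66 in young hearts.

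Hearts of the same age covered a wide range of response. Taking each IR heart against the mean of the sham hearts of its age, the 1780 risen genes averaged 1.01, 0.62 and 0.88 in the aged IR hearts, against 0.52, 0.92 and 0.99 in the young IR hearts. The 1118 fallen genes averaged -0.72, -0.60 and -0.68 in aged, against -0.59, -0.64 and -0.76 in young IR hearts. The ages overlap on both measures, and the weakest rise was in young IR 1, followed by aged IR 2.

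**Figure D2:**
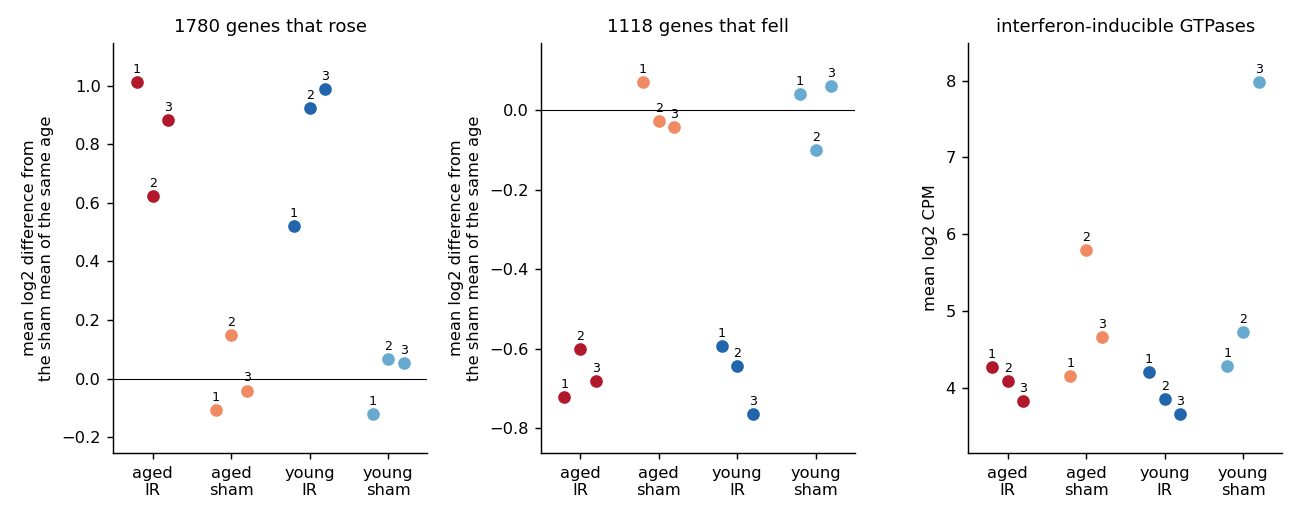
Each point is 1 heart; 2 plots give the mean log2 difference from the sham mean of the same age over the 1780 risen and the 1118 fallen genes, and 1 gives the mean log2 CPM of the interferon-inducible GTPases. Aged and young IR hearts overlap for the risen and fallen genes, and young sham 3 (7.98) lies above every other heart for the GTPases.

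Genes were named for the strongest mean response among those with at least 1 CPM and no overlap between IR and sham at either age. Besides Spp1, Lcn2, Cxcl5 and Arg1, described with their classes, the named risen genes were Saa3, an acute-phase protein (5.41 ± 0.75 in aged and 5.54 ± 0.94 in young hearts), Chil3, a chitinase-like protein of alternatively activated macrophages (5.49 ± 0.83 and 5.73 ± 1.14 in aged and young hearts), and Sprr1a, a stress-induced protein of cardiomyocytes (4.75 ± 0.87 and 6.35 ± 1.26). F10, coagulation factor X, had 0 counts in the young sham hearts, so no fold is given. The atrial myosin light chains Myl7 and Myl4 had the lowest mean response among the fallen genes that met this rule, and were called at neither age alone. Myl7 stood at 1.06, 0 and 0.53 CPM in aged IR, 19.7, 2.78 and 15.98 in aged sham, 1.71, 0.149 and 0.0939 in young IR and 36.7, 4.66 and 5.07 in young sham hearts. These genes mark atrial muscle, and the part that atrial tissue in the samples plays was not tested. Fmod, fibromodulin of the collagen matrix, fell by nearly the same amount at both ages (-2.37 ± 0.50 in aged and -2.37 ± 0.49 in young hearts), and its difference had an interval of -1.49 to 1.5. Clcn1, a chloride channel, fell in both as well (-2.36 ± 0.39 in aged and -1.96 ± 0.36 in young hearts).

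What could be excluded depended on a gene's level and on how strongly it responded. The 95% interval of the difference lay within 2-fold either way for 9654 genes (69.7%), and an equivalence test against 2-fold, adjusted over all genes, passed for 10165 (73.3%). At a bound of 1.5-fold the equivalence test passed for 3275 genes. The median half-width of the interval was 0.56. Among genes above 100 CPM 90.5% were within 2-fold, from 10 to 100 CPM 88.1%, from 1 to 10 CPM 34.3%, and below 1 CPM 0 of 835. Strong responders were the least well bounded. Of the 5468 genes with a mean response of 0 to 0.5, 81.4% were within 2-fold. The share was 15.5% of the 452 genes between 1 and 2, 5.88% of the 85 between 2 and 3, and 0 of the 77 above 3, of which 11.7% were within 4-fold. For the most induced genes differences of several fold are therefore not excluded by these intervals. The intervals and the equivalence test use the same edgeR estimates of spread as the p-values of the difference, which ran high. Whether the intervals are too wide in these data was not tested.

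**Figure D3:**
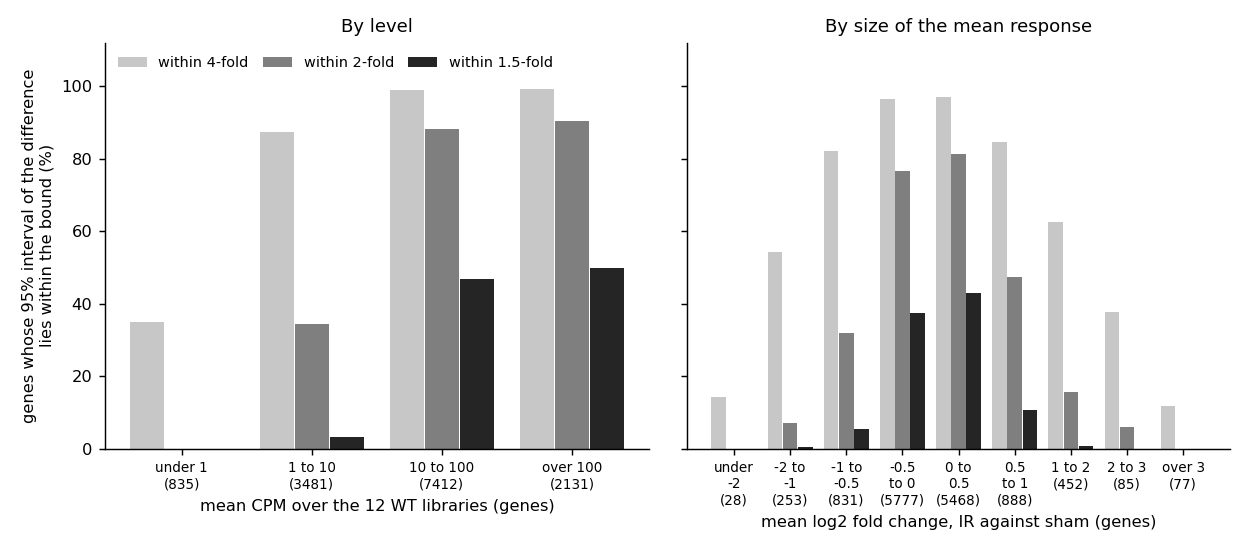
Share of genes, in percent, whose 95% interval of the aged minus young difference lies within 4-fold, 2-fold or 1.5-fold either way, by mean CPM over the 12 libraries and by size of the mean response. The share within 2-fold is 90.5% above 100 CPM and 0 among the 77 genes with a mean response above 3.

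Neutrophil markers gave the highest median rise of the 41 gene lists, at both ages. Of 15 tested 14 rose in aged and 13 in young hearts, with median fold changes of 4.02 in aged and 4.31 in young hearts, against 0.0031 and 0.0058 over all genes. The median difference was -0.033, with 7 of 15 positive, and ran from -0.42 without aged sham 1 to 0.51 without aged sham 2. Summed CPM was 392 to 633 in aged IR, 13.0 to 35.6 in aged sham, 194 to 522 in young IR and 12.7 to 18.99 in young sham hearts. In whole ventricle, more cells of a type and more RNA per cell cannot be told apart. Lcn2, an iron-scavenging protein of neutrophils and injured tissue, stood at 266, 538 and 213 CPM in aged IR and 2.57, 7.51 and 2.27 in aged sham hearts, and at 441, 99.8 and 176 in young IR and 3.12, 2.76 and 5.07 in young sham hearts. IR and sham did not overlap at either age, and the IR hearts of the 2 ages did overlap. Its difference was 0.31 ± 0.92, with an interval of -1.64 to 2.25.

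Clec4d, a lectin receptor of neutrophils and monocytes (chromosome 6, 123262111 to 123275265), had the smallest p for the difference in the neutrophil list. It stood at 11.7, 8.61 and 9.89 CPM in aged IR and 1.53, 2.7 and 1.14 in aged sham hearts. In young hearts it stood at 6.91, 11.4 and 10.99 CPM after IR and 0.416, 1.03 and 0.249 after sham. The IR levels of the ages overlapped, while every aged sham heart lay above every young sham heart. The fold change was 2.47 ± 0.32 in aged and 4.09 ± 0.41 in young hearts, and the difference of -1.62 ± 0.52 (unadjusted p = 0.00541, adjusted p = 0.9998) was not called. It ran from -2.34 to -1.20 when 1 library was left out, which is no test of a gene picked by its small p in these libraries. The part that the number of neutrophils plays in it was not tested.

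Cytokines and chemokines of the acute phase rose at both ages. Of 28 tested, 14 rose in aged and 14 in young hearts, where 5.36% and 4.17% of all genes rose, and 13 rose in both. The medians were 2.01 in aged and 2.27 in young hearts, and the median difference 0.01. Ccl2, the chemokine that recruits monocytes (chromosome 11, 82035571 to 82037453), stood at 53.2, 30.5 and 39.3 CPM in aged IR and 3.2, 4.5 and 3.88 in aged sham hearts, and at 31.2, 58.9 and 54.5 in young IR and 2.84, 4.42 and 5.98 in young sham hearts. IR and sham did not overlap, whereas the IR hearts of the 2 ages overlapped, as did the sham hearts. The fold changes were 3.41 ± 0.33 in aged and 3.46 ± 0.33 in young hearts, and the difference of -0.045 ± 0.47 had an interval of -1.04 to 0.95. Ptx3, a pattern-recognition protein of acute inflammation, had fold changes of 4.94 ± 0.49 in aged and 4.37 ± 0.46 in young hearts. Cxcl5, a neutrophil chemokine, had 5.47 ± 0.86 and 5.49 ± 0.87 in aged and young hearts.

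Ccl11, an eosinophil chemokine, had the smallest p for the difference in the list (0.71 ± 0.27, unadjusted p = 0.0192) and was not called. It stood at 18.4, 20.4 and 17.6 CPM in aged IR and 12.7, 13.7 and 15.9 in aged sham hearts, against 5.88, 3.96 and 6.57 in young IR and 6.51, 5.84 and 7.64 in young sham hearts. All 6 aged hearts lay above all 6 young hearts, and the aged groups did not overlap while the young groups did.

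The promoters of the neutrophil chemokines Cxcl1 (fold change 2.08 in aged and 2.35 in young hearts) and Cxcl2 (1.90 in aged and 2.74 in young hearts) are shown because letters of the kind bound by NF-kappa-B, a main inducer of this class, lie in them. Sequences are from RefSeq on GRCm38.p6, plus strand, from 250 bases before to 50 after the start, with matches to GGGNNTTTCC on either strand in capitals.
Cxcl1: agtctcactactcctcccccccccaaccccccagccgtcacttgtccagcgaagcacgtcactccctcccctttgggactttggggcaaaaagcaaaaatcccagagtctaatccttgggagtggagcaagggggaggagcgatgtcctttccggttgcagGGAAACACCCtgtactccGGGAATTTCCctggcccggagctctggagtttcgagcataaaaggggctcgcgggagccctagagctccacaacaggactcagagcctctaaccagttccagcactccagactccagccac
Cxcl2: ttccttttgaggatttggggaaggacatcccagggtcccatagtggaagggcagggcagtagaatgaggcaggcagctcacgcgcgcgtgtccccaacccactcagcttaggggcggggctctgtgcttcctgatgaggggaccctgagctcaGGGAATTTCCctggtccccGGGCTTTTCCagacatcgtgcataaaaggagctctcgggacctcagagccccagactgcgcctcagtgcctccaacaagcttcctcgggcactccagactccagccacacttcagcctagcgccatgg
The windows span chr5:90890995-90891294 and chr5:90903649-90903948. The letters occurred in 8 of 24 windows of the 20 list genes that matched, and in 1.63% of 32851 windows of all genes. A match is a description of the letters and not a bound site.

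Macrophage markers rose less, with 11 of 26 called in aged, 8 in young and 6 in both. Over all genes 5.36% rose in aged and 4.17% in young hearts. The median difference of these markers was 0.10, which ran from -0.076 without aged IR 1 to 0.41 without aged sham 2. Arg1, the arginase of wound macrophages, was at 45.1, 12.2 and 43.3 CPM in aged IR hearts, with 1 count in all aged sham hearts together, and at 8.79, 16.2 and 31.5 CPM in young IR hearts, with 4 counts in the young sham hearts. No fold or interval is given for it because of the low sham counts. Lgals3, galectin 3, a lectin of activated macrophages, stood at 71.4, 42.8 and 44.5 CPM in aged IR and 12.3, 22.6 and 10.7 in aged sham hearts, against 28.6, 116 and 67.7 in young IR and 4.92, 10.8 and 8.64 in young sham hearts. IR lay above sham at both ages. Its fold change was 1.80 ± 0.43 in aged and 3.13 ± 0.44 in young hearts, and the difference of -1.33 ± 0.61 (unadjusted p = 0.0451) was not called. It ran from -1.71 without young IR 1 to -0.77 without young IR 2.

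Wound matrix genes rose at both ages, with a lower median in aged hearts. Of 36 genes of fibrillar matrix and remodelling 20 rose in aged and 25 in young hearts, 20 in both (all genes 5.36% and 4.17%). The medians were 1.00 in aged and 1.27 in young hearts, and 11 of 36 differences were positive, where 49.6% of all genes were. The median difference of -0.22 was -0.46 without young IR 1 and -0.039 without young IR 2. Timp1, an inhibitor of matrix metalloproteinases (chromosome X, 20870166 to 20874735), stood at 265, 89.6 and 174 CPM in aged IR and 5.01, 8.93 and 3.59 in aged sham hearts. In young hearts it stood at 61.2, 141 and 177 CPM after IR and 2.08, 3.16 and 3.74 after sham. IR and sham did not overlap and the IR groups of the ages overlapped, with fold changes of 4.90 ± 0.46 in aged and 5.41 ± 0.50 in young hearts.

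Postn, periostin, a matrix protein of activated fibroblasts (chromosome 3, 54361109 to 54391037), differed widely between the young IR hearts. It stood at 185, 110 and 183 CPM in aged IR and 98.1, 131 and 110 in aged sham hearts, against 41.4, 516 and 438 in young IR and 77.2, 74.5 and 71.9 in young sham hearts. Young IR 1 lay below all sham hearts and the other young IR hearts lay above all other libraries. The difference was -1.66 ± 0.76 (unadjusted p = 0.0445) and was not called. Without young IR 1 it was -2.18 with an adjusted p of 0.19, and without young IR 2 it was -1.19.

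Spp1, osteopontin, a matrix protein and cytokine of macrophages and fibroblasts (chromosome 5, 104435118 to 104441050), rose strongly at both ages. It stood at 302, 107 and 153 CPM in aged IR and 1.11, 1.88 and 0.851 in aged sham hearts, and at 31.5, 186 and 125 in young IR and 0.623, 0.789 and 1.08 in young sham hearts. IR lay above sham in every heart. The fold changes were 7.16 ± 0.66 in aged and 7.10 ± 0.75 in young hearts. Although these nearly coincide, the interval of the difference, -2.05 to 2.17, reaches past 4-fold either way.

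**Figure D4:**
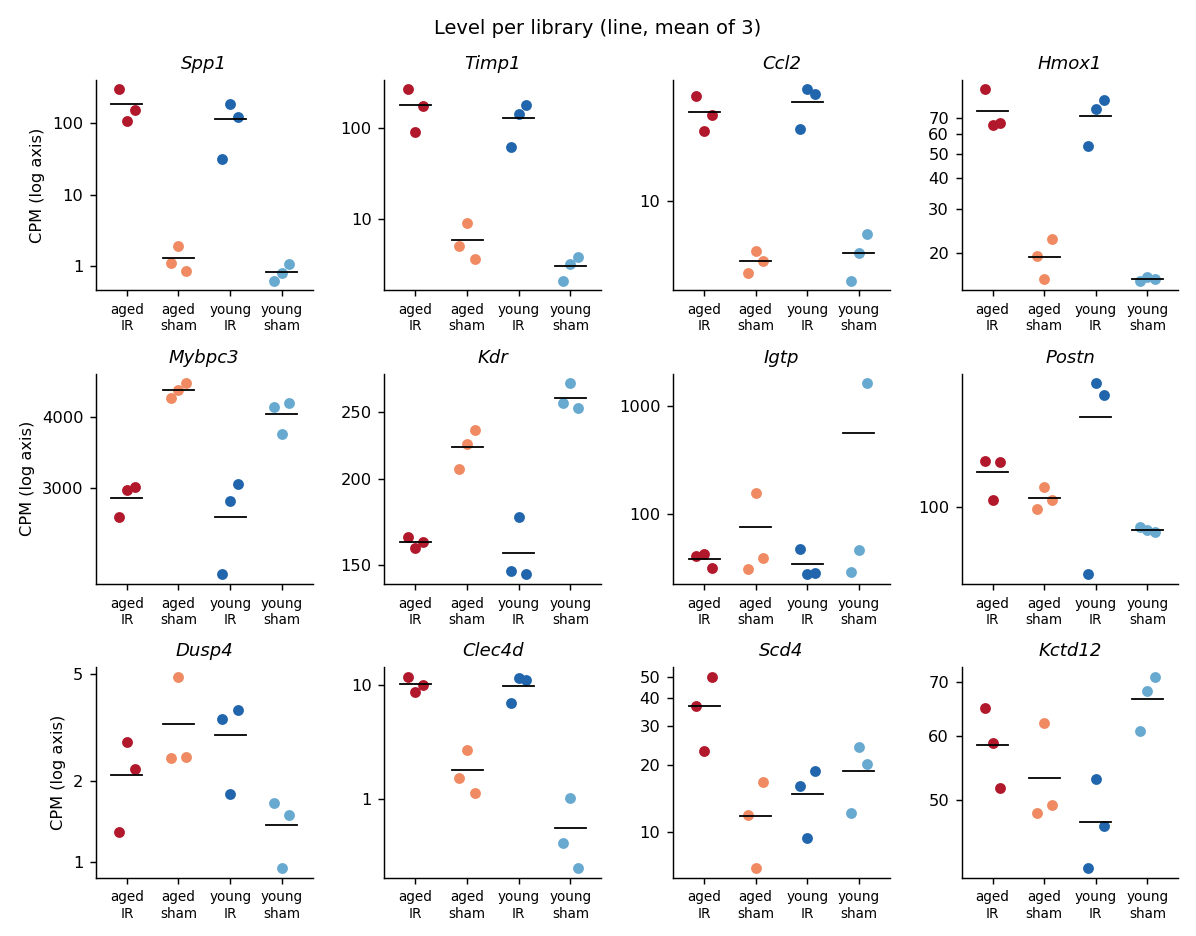
CPM in each heart, on log axes, for 12 genes in the order aged IR, aged sham, young IR, young sham. Spp1, Timp1, Ccl2 and Hmox1 rose and Mybpc3 and Kdr fell at both ages, young sham 3 (1636 CPM) lies above every other heart for Igtp, and Postn, Dusp4, Clec4d, Scd4 and Kctd12 had an unadjusted p below 0.05 for the difference without being called.

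Most genes of the oxidative stress response were bounded within 2-fold. Of 26 oxidative stress and NRF2 target genes 5 rose in aged and 5 in young hearts, where 5.36% and 4.17% of all genes rose. Of the 26 differences 22 were within 2-fold (84.6%), against 69.7% of all genes and 88.1% of those from 10 to 100 CPM. The list had a mean log2 CPM of 6.18 in aged sham hearts, so it was not better bounded than genes of like level. Hmox1, the haem-degrading enzyme (chromosome 8, 75093621 to 75100589), stood at 90.97, 65.1 and 66.3 CPM in aged IR and 19.5, 15.6 and 22.7 in aged sham hearts, and at 53.8, 76.04 and 82.7 in young IR and 15.4, 16.02 and 15.7 in young sham hearts. IR and sham did not overlap. Fold changes of 1.95 ± 0.21 in aged and 2.17 ± 0.21 in young hearts gave a difference with an interval of -0.85 to 0.41, within 2-fold by the equivalence test (adjusted p = 0.0154). Mt2, a metal-binding metallothionein, had fold changes of 2.78 ± 0.28 in aged and 2.77 ± 0.28 in young hearts, also within 2-fold (adjusted p = 0.0196).

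Over all genes 5.36% rose in aged and 4.17% in young hearts. Among 31 genes for ER stress and the integrated stress response 10 rose in aged and 11 in young hearts, 9 in both, with a median difference of 0.045. Psat1, an enzyme of serine synthesis, had fold changes of 1.86 ± 0.28 in aged and 1.75 ± 0.28 in young hearts. Of 29 immediate early genes 9 rose in aged and 9 in young hearts, among them Junb, a subunit of AP-1 (1.47 ± 0.23 and 1.35 ± 0.23 in aged and young hearts), and Socs3, a feedback inhibitor of cytokine signalling (2.66 ± 0.32 and 2.16 ± 0.32). Of 22 genes of programmed cell death 2 rose at both ages, where 5.36% of all genes rose in aged and 4.17% in young hearts. Tnfrsf1a, the TNF receptor that carries a death domain, stood at 140, 124 and 136 CPM in aged IR and 62.5, 80.8 and 76.2 in aged sham hearts, and at 124, 122 and 138 in young IR and 69.7, 74.5 and 81.3 in young sham hearts. Its IR hearts lay within a narrow range at both ages, and its difference of 0.10 ± 0.15 had an interval of -0.21 to 0.42.

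Most heart muscle genes were not called at either age alone. Of 32 genes of contraction and ion handling 3 fell in aged and 2 in young hearts, where 2.24% and 1.9% of all genes fell. Averaged over both ages 10 of the 32 fell, where 8.07% of all genes did, and 0 rose. The medians of the list were -0.34 in aged and -0.29 in young hearts, and 25 of 32 differences were within 2-fold (78.1%). Of all genes 69.7% were, and of those above 100 CPM 90.5%. The list had a mean log2 CPM of 8.93 in aged sham hearts, so it was less well bounded than genes of high level. Mybpc3, cardiac myosin-binding protein C of the thick filament (chromosome 2, 91118144 to 91136516), stood at 2675, 2987 and 3012 CPM in aged IR and 4311, 4449 and 4579 in aged sham hearts, and at 2125, 2850 and 3058 in young IR and 4163, 3731 and 4234 in young sham hearts. IR lay below sham in every heart of both ages. The fold changes were -0.62 ± 0.13 in aged and -0.59 ± 0.13 in young hearts, and the difference had an interval of -0.41 to 0.36, within 2-fold (adjusted p = 0.000206). Kcnj11, the pore subunit of the ATP-sensitive potassium channel, had -0.60 ± 0.11 in aged and -0.50 ± 0.11 in young hearts and fell at both ages.

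Endothelial markers were within 2-fold in 16 of 16 cases, where 69.7% of all genes and 90.5% of those above 100 CPM were. The list had a mean log2 CPM of 6.95 in aged sham hearts. Kdr, the main VEGF receptor of endothelium, fell at both ages, to 165, 159 and 162 CPM in aged IR hearts, against 207, 225 and 235 in aged sham hearts, and to 147, 176 and 146 in young IR hearts, against 257, 275 and 253 in young sham hearts. Its fold changes were -0.46 ± 0.12 in aged and -0.74 ± 0.12 in young hearts. The difference of 0.29 ± 0.17 was not called and had an interval of -0.077 to 0.65.

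Genes of energy metabolism differed in how well they were bounded. All 26 genes of the TCA cycle and pyruvate dehydrogenase were within 2-fold, with a median difference of 0.049. Of 31 genes of fatty acid oxidation and uptake 22 were within 2-fold (70.97%), where 69.7% of all genes and 90.5% of those above 100 CPM were. This list had a mean log2 CPM of 8.39 in aged sham hearts, so it was less well bounded than genes of high level. Angptl4 and Plin2 rose at both ages in this list. Angptl4, an inhibitor of lipoprotein lipase, stood at 91.5, 103 and 126 CPM in aged IR and 7.1, 5.48 and 14.4 in aged sham hearts, against 67.4, 19.2 and 72.5 in young IR and 7.34, 11.8 and 6.98 in young sham hearts. IR and sham did not overlap, young IR 2 was the lowest IR heart, and the difference of 0.99 ± 0.73 was not called. It was 0.59 without young IR 2 and 1.48 without aged sham 3. Plin2, a coat protein of lipid droplets, had 1.13 ± 0.19 in aged and 0.75 ± 0.19 in young hearts.

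Small differences of 1 sign ran through the respiratory chain and the ribosomal proteins. In the respiratory chain 38 of 40 were positive, with median responses of 0.11 in aged and -0.10 in young hearts and a median difference of 0.19. Among cytosolic ribosomal proteins 49 of 50 were positive, with medians of 0.47 in aged and 0.16 in young hearts and a median difference of 0.30. In edgeR 0 members of either list were called for the difference or had an unadjusted p below 0.05. Such a p was found in 1.10% of all genes. Within 2-fold were 36 of 40 (90%) and 42 of 50 (84%), where 69.7% of all genes and 90.5% of those above 100 CPM were. The lists had a mean log2 CPM of 9.61 and 7.85 in aged sham hearts, so neither was better bounded than genes of high level. Transcript length moved with these values: in 3 equal classes of length, the shortest genes had a median difference of 0.06 and the longest -0.05. With each library's length trend as a covariate the median differences were 0.047 for the respiratory chain and 0.11 for the ribosomal proteins. Without the 6 length-tilted libraries they were larger, 0.25 and 0.43. Without young sham 2 they were 0.074 and 0.11, without young IR 1 the respiratory chain had 0.33, and without young sham 1 the ribosomal proteins had 0.46, so the sizes rest on single hearts. Both medians stayed positive in all 23 settings, which share most libraries. For the response itself 42 of 50 ribosomal proteins in aged and 1 in young hearts had an unadjusted p below 0.05 in edgeR. Over all genes 23.7% and 20.95% had such a p. After adjustment 1 of the 50 rose in aged and 0 in young hearts, where 5.36% and 4.17% of all genes rose. A p that passes at 1 age alone does not show a difference between ages. Members of a list share hearts and are not independent.

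Interferon genes gave the widest gap between the responses, and it rested on 1 library. Of 16 interferon-inducible GTPases, which restrain microbes inside cells, 0 fell in aged and 11 in young hearts, where 2.24% and 1.9% of all genes fell. In either direction 1 in aged and 16 in young hearts had an unadjusted p below 0.05 in edgeR. Over all genes 23.7% in aged and 20.95% in young hearts had such a p. Without young sham 3 the calls turned round, with 3 fallen in aged and 0 in young hearts, beside 265 and 72 of all 14010 genes then tested. With all libraries in the fit, 16 of 16 differences were positive, with medians of -0.99 in aged and -2.69 in young hearts and a median difference of 1.60. None was called for the difference in edgeR, and 1 had an unadjusted p below 0.05. Igtp (chromosome 11, 58199556 to 58207591) stood at 41.4, 42.4 and 31.8 CPM in aged IR and 30.9, 157 and 39.05 in aged sham hearts, against 47.3, 27.7 and 28.6 in young IR and 29.02, 46.2 and 1636 in young sham hearts. Young sham 3 and, less so, aged sham 2 stood above the range of the IR hearts. Its difference of 3.07 ± 1.41 (interval 0.07 to 6.07) was -0.85 without young sham 3. Gbp3, a guanylate-binding protein, stood at 30.8, 23.1 and 19.4 CPM in aged IR and 30.4, 94.7 and 46.4 in aged sham hearts, against 22.2, 24.2 and 19.7 in young IR and 34.7, 58.95 and 263 in young sham hearts. Its difference of 1.21 ± 0.78 was -0.14 without young sham 3. Genes of this family share sequence, and how reads were split among them is not given in the sources used here.

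Without young sham 3 the GTPases had a median difference of -0.29, with 2 of 16 positive, and median responses of -0.99 in aged and -0.57 in young hearts. The 31 other interferon-stimulated genes had a median difference of 0.33 with that library and -0.29 without it. For 15 genes of MHC class I presentation the values were 0.45 with it and -0.26 without it, and for 10 of MHC class II presentation 0.42 and -0.041. Cxcl9, a chemokine induced by interferon gamma, stood at 6.51, 5.59 and 6.89 CPM in aged IR and 11.2, 21.6 and 10.02 in aged sham hearts, against 4.18, 7.85 and 4.98 in young IR and 13.9, 21.5 and 82.7 in young sham hearts. IR lay below sham at both ages. Its fold change was -1.17 ± 0.53 in aged hearts, not called, and -2.78 ± 0.52 in young hearts, called, and the difference of 1.61 ± 0.75 was 0.46 without young sham 3. Markers of T and NK cells, which release interferon gamma, summed to 17.6 to 22.5 CPM in aged IR, 25.1 to 40.4 in aged sham, 13.7 to 26.97 in young IR and 19.99 to 24.96 in young sham hearts. Their part in the levels of young sham 3 was not tested.

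The promoters of Igtp and Gbp3 are shown because both carry the core letters of the interferon-stimulated response element, GAAANNGAAA, in capitals here for either strand. They are from RefSeq on GRCm38.p6, plus strand, with the same bounds as above.
Igtp: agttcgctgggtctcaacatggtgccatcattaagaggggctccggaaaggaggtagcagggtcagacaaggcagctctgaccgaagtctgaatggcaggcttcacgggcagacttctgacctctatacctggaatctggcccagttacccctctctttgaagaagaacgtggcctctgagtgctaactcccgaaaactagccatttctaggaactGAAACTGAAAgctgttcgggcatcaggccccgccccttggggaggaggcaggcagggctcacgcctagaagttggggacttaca
Gbp3: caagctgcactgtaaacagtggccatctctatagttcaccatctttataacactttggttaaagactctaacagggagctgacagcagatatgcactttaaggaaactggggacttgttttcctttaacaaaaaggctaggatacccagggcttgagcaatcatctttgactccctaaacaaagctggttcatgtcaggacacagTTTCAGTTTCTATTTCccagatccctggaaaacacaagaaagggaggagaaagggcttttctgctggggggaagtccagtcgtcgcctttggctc
The windows span chr11:58199306-58199605 and chr3:142559794-142560093. The letters occurred in 9 of 11 windows of the 10 GTPases that matched, in 2 of 24 windows of the acute cytokines and in 3.44% of all windows.

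**Figure D5:**
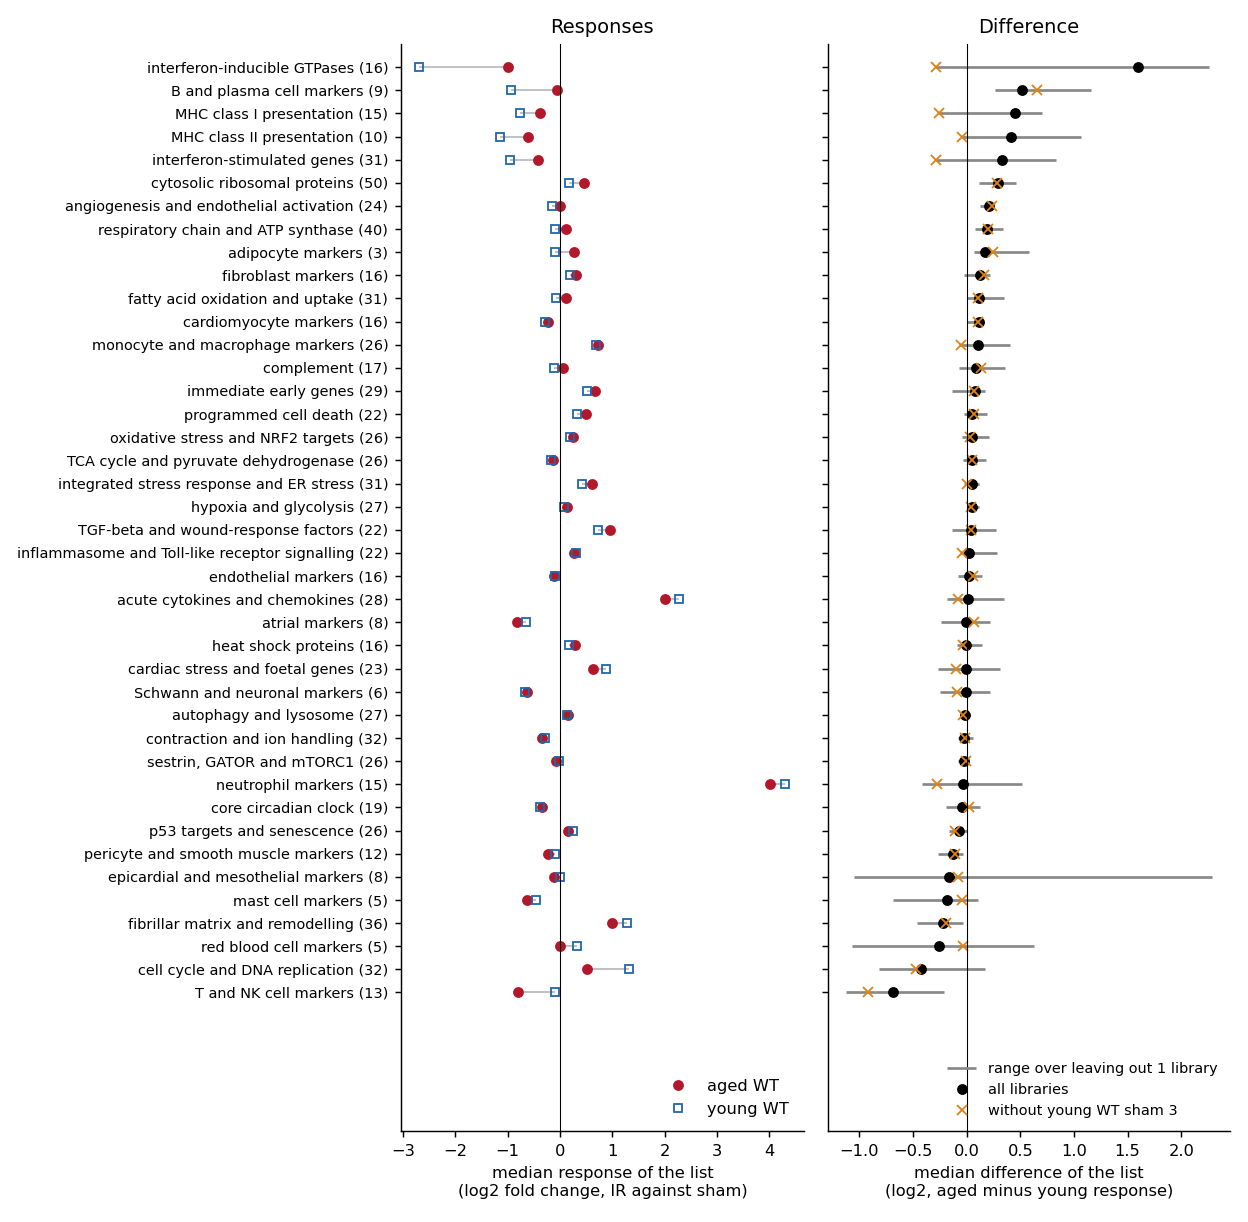
Median log2 fold change of IR over sham of each gene list in aged and young WT hearts, and the median aged minus young difference with its range over leaving out 1 library and its value without young sham 3. The 4 interferon and MHC lists have positive medians that are negative without young sham 3, and 21 of 41 lists lie within 0.1 of 0.

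Across the 41 lists the median difference was under 0.1 either way in 21 and under 0.25 in 32. It was 0.5 or more in 3, the GTPases, the B and plasma cell markers and the T and NK cell markers. In 10 lists the sign was the same in all 23 settings tried. Cell cycle genes had medians of 0.52 in aged and 1.32 in young hearts and a median difference of -0.43, which was 0.17 without young IR 2 and -0.81 without young IR 1. Of 32 such genes 4 rose in aged and 2 in young hearts, where 5.36% and 4.17% of all genes rose. Tyms, which makes thymidylate for DNA synthesis, rose in both. In either direction 11 of the 32 in aged and 23 in young hearts had an unadjusted p below 0.05 in edgeR. Over all genes 23.7% in aged and 20.95% in young hearts had such a p.

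The single genes with the smallest p for the difference, 10 in each direction, are named by rule, and edgeR called none. Their unadjusted p ran from 0.00398 to 0.0155, at an adjusted p of 0.9998. Kctd12, an auxiliary subunit of GABA-B receptors (chromosome 14, 102976581 to 102982637), stood at 64.9, 58.8 and 51.6 CPM in aged IR and 48.1, 62.1 and 49.3 in aged sham hearts, against 41.1, 53.01 and 46.4 in young IR and 60.7, 68.2 and 70.9 in young sham hearts. The aged groups overlapped and the young groups did not. The fold change was 0.14 ± 0.14 in aged hearts and -0.51 ± 0.14 in young hearts, where it was called, and the difference was 0.64 ± 0.20. The call in young hearts was lost on dropping any single young library (edgeR adjusted p between 0.051 and 0.148). Dropping aged IR 2, aged sham 1 or aged sham 3 also took it away (0.0548, 0.0503 and 0.0574). It held on dropping aged IR 1, aged IR 3 or aged sham 2 (0.0422, 0.0457 and 0.0386). Scd4, a stearoyl-CoA desaturase (chromosome 19, 44333092 to 44346743), rose in aged hearts, to 37.04, 23.3 and 49.8 CPM in aged IR, against 11.9, 6.91 and 16.8 in aged sham hearts, and stood at 16.2, 9.42 and 18.8 in young IR and 12.2, 24.1 and 20.3 in young sham hearts. The aged groups did not overlap and the young groups did. Its difference was 1.99 ± 0.63 and stayed between 1.71 and 2.32 when 1 library was left out. Scd4 was picked by this difference in the same libraries, so that range is no test of it. The rise in aged hearts was not called without aged sham 1, 2 or 3 or without aged IR 1 or 3 (adjusted p = 0.053 to 0.14 in edgeR). Scd4 has close paralogues, so reads may be split among them.

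Kcne1, an accessory subunit of a repolarising potassium channel, stood at 2.65, 2.35 and 3.18 CPM in aged IR and 4.45, 3.9 and 3.5 in aged sham hearts, against 2.64, 4.26 and 2.54 in young IR and 8.24, 10.02 and 10.2 in young sham hearts. IR lay below sham at both ages, it fell in young hearts by the test (-1.58 ± 0.25), and the difference of 1.05 ± 0.36 came with higher sham levels in young hearts. Lpar6, a receptor for lysophosphatidic acid, stood at 21.97, 23.04 and 19.4 CPM in aged IR and 18.9, 20.6 and 27.1 in aged sham hearts, against 14.8, 12.5 and 18.4 in young IR and 22.6, 31.4 and 29.7 in young sham hearts, with a difference of 0.83 ± 0.28. Dusp4, a phosphatase that switches off MAP kinases (chromosome 8, 34807297 to 34819894), ran the other way. It stood at 1.29, 2.8 and 2.21 CPM in aged IR and 2.44, 4.88 and 2.46 in aged sham hearts, against 3.41, 1.79 and 3.66 in young IR and 1.66, 0.947 and 1.5 in young sham hearts. The young groups did not overlap, the aged groups did, and the difference was -1.75 ± 0.52. The other named genes with a positive difference were Nutf2, Dusp12, B3galt6, Zfp455, Rn45s and Rap1b (0.46 to 1.19), and those with a negative one were Fam46c, Wdr91, Zranb3, Trp53bp2, Sh3bp4, Tom1l1, Slc46a1 and Mypop (-1.40 to -0.46).

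Sesn2, the stress-induced sestrin that the series knocks out in its other arm, was not called after IR at either age. It stood at 3.11, 4.7 and 3.27 CPM in aged IR and 4.04, 4.28 and 3.4 in aged sham hearts, and at 2.56, 4.19 and 4.23 in young IR and 5.96, 2.76 and 2.91 in young sham hearts. All 4 groups overlapped. The difference had an interval of -1.19 to 1.18, so a difference of 2-fold either way was not excluded at this depth. Of 26 genes of sestrin, GATOR and mTORC1 signalling 23 were within 2-fold (88.5%), beside 69.7% of all genes and 88.1% of those from 10 to 100 CPM. The list had a mean log2 CPM of 5.465 in aged sham hearts, so this share is near that of genes of like level. Rragd, a Rag GTPase that brings mTORC1 to lysosomes, fell at both ages (-0.63 ± 0.11 in aged and -0.58 ± 0.11 in young hearts), and its difference had an interval of -0.39 to 0.28.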

How the data were processed

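RNA was sequenced from 18 mouse left ventricles, and the authors deposited 1 table per sample of raw counts per gene symbol. The submitters' processing notes name the mm10 build and, with no roles given, SAMtools, HTSeq, TopHat2, Bowtie2 and FastQC. The kit was stranded, per the labels' protocols, but the strand setting of the counting is not given in the sources used here, so overlapping and antisense genes stay uncertain. Reads without a feature (6.12 to 9.06% in the 12 WT libraries) and ambiguous reads (0.631 to 0.759%) were left out. The 12 libraries held 9404531 to 14458047 gene counts, with 15715 to 16193 genes detected. Of 24421 symbols, 23334 (95.5%) were found once in GENCODE M21, the source of the coordinates on GRCm38.

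The difference and the responses were contrasts of 1 edgeR model over 6 groups and 18 libraries (edgeR 4.0.16, R 4.3.3; filterByExpr, TMM, robust quasi-likelihood test, Benjamini-Hochberg adjustment). Intervals are 95% Wald intervals per gene, not adjusted over genes, and none is given for the 68 genes with 3 counts or fewer in a WT group. Alternatives included DESeq2 1.42.0, limma 3.58.1 and leaving out each library. Replicates differed by more than counting noise. Same-numbered samples were not treated as paired, because the correlation of their deviations ran from -0.35 to 0.52, with 4 of 18 over 0.1.

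The members, gene lists and tests were chosen with earlier results of these data known. Genes were named by rule: at a mean of at least 1 CPM, up to 10 a direction for the difference, filled by smallest p where too few were called; the 8 highest and 8 lowest for the mean response among those without overlap; from each list 3 by the mean response and 2 by the difference; and the sestrins. The 6 genes separated in opposite directions and Cxcl1 and Cxcl2 were chosen after their values were seen.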

Additional observations from a re-analysis of the deposited data

Results flagged for a closer look

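In 6 genes every aged IR heart moved one way from the aged sham hearts and every young IR heart the other way from the young sham hearts. They were named after their values were seen. The difference itself was tested in edgeR, and all 6 had an adjusted p of 0.9998. In Pcdhb12, a protocadherin, the difference was -1.606 (unadjusted p = 0.0167). It stood at 0.833, 1.57 and 0.971 CPM in aged IR and 2.16, 1.65 and 1.99 in aged sham hearts, against 0.938, 1.05 and 2.07 in young IR and 0.900, 0.631 and 0.748 in young sham hearts. Plcl1 had a difference of -0.4495 (unadjusted p = 0.0522), Oser1 of -0.3971 (unadjusted p = 0.0596) and Ndst2, an enzyme of heparan sulphate synthesis, of -0.236 (unadjusted p = 0.116). All 4 were lower after IR in aged hearts and higher after IR in young hearts. Hnrnpa1, a splicing factor, had a difference of 0.5921 (unadjusted p = 0.0696) and Surf2 of 0.2045 (unadjusted p = 0.168), both higher after IR in aged hearts and lower after IR in young hearts. These are 0.0433% of the genes tested.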

How the results depend on the processing

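The count of genes called for the difference was 0 in every alternative tried, as were the calls among the 212 named genes, of whose 4449 values in other settings 369 had another sign. The count called for the mean response was 4711 with the length covariate, 855 without the 6 length-tilted libraries and 5398 in voom. For aged hearts these gave 2120, 106 and 3436 calls. For young hearts they gave 2020, 16 and 2637, and DESeq2 gave 1318. Leaving out 1 library gave 232 to 1369 calls in aged and 270 to 1465 in young hearts, 2012 to 3398 for the mean response, 9203 to 9885 genes passing the 2-fold equivalence test (10165 with all libraries) and slopes of 0.80 to 1.08. At 1.5-fold 3275 genes passed the equivalence test. Beyond the fewer libraries or the smaller bound, the cause was not tested. The spread between 3 hearts a group limits what can be excluded for strong responders and for genes under 1 CPM. The replicate block, for a pairing that the check did not bear out, gave 0 calls for the difference, 3101 for the mean response, 1236 in aged and 879 in young hearts, 10398 genes passing the equivalence test and a slope of 0.95.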

Other observations

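Markers of lymphocytes had the largest median differences outside the interferon genes, with wide intervals. In edgeR 0 of 13 T and NK cell and 0 of 9 B and plasma cell markers were called for the difference. An unadjusted p below 0.05 was found in 0 and 1 of them, beside 1.10% of all genes. Within 2-fold were 1 of 13 and 0 of 9. Of all genes 69.7% were, from 1 to 10 CPM 34.3% and below 1 CPM 0 of 835. The median half-widths were 2.19 and 1.76, against 0.56 over all genes. In the T and NK cell list 1 of 13 differences were positive, with medians of -0.80 in aged and -0.095 in young hearts and a median difference of -0.69, which was -0.21 without aged sham 2 and -1.12 without aged sham 1. In the B and plasma cell list 7 of 9 were positive, with medians of -0.058 in aged and -0.93 in young hearts and a median difference of 0.52, which was 0.26 without young IR 1 and 1.16 without young IR 3. Cd79b, a signalling chain of the B cell receptor, stood at 3.33, 2.46 and 1.68 CPM in aged IR and 1.74, 3.6 and 2.17 in aged sham hearts, against 0.768, 1.2 and 1.13 in young IR and 2.42, 2.45 and 2.74 in young sham hearts. Its difference of 1.28 ± 0.59 (unadjusted p = 0.043) was not called.

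Core clock genes had medians of -0.35 in aged and -0.39 in young hearts and a median difference of -0.046. Of 19 such genes 12 (63.2%) were within 2-fold, where 69.7% of all genes and 88.1% of those from 10 to 100 CPM were. Angiogenesis genes had a median difference of 0.21, 20 of 24 positive, and its sign was the same in all 23 settings, with 0.13 without young IR 1. Autophagy and lysosome genes were within 2-fold in 24 of 27 cases (88.9%), beside 88.1% of all genes from 10 to 100 CPM.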
